A study of Mus musculus with 12 samples.

Results

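MicroRNA genes other than Mir142 were followed in natural killer (NK) cells of wild type mice and of mice that lack Mir142. The members were probe sets whose platform annotation gave exactly 1 gene symbol, starting with Mirlet7 or with Mir and a digit. Their mean log2 signal over the 12 arrays of the deposited expression table was above 5.0. By this rule the microRNA host genes Mir99ahg and Mir670hg are members too. There were 136 such probe sets, for 136 gene symbols, among 304 microRNA probe sets with 1 symbol and 35556 probe sets in all. The members were thus chosen by their mean signal, so their levels are given as a description. Differences between groups were not a criterion of the choice. A member near the limit can still have passed it through the groups where it was higher. Mir196b, higher in knockout, and Mir19b-1, lower in knockout, are such members. Another 168 microRNA probe sets had means at or below 5.0.

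The study compared 4 groups of 3 arrays: NK cells of wild type and of knockout mice, each from spleen and from bone marrow. All mice were C57BL6, aged 7 to 10 weeks and matched for age and sex, and the cells were sorted as CD3- NK1.1+. The labels name the genotypes miR142 WT and miR142 KO, describe biological replicates within a group and give no allele, Cre or pooling of animals. The values are log2 signals after robust multi-array averaging (RMA), a background correction, quantile normalization and summary of probes made by the authors.

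MicroRNAs are copied from the genome as long primary transcripts, often from introns of protein-coding genes or as clusters that share 1 transcript. Drosha and Dgcr8 cut out a hairpin in the nucleus, Xpo5 exports it with Ran, and Dicer1 cuts it to the short mature strand that Argonaute proteins hold. Bases 2 to 8 of the mature strand, the seed, pair with target messenger RNAs and repress them, and microRNAs with 1 seed form a family. Mir142 is a microRNA gene of blood cells, and the let-7, miR-15/16, miR-17 and miR-181 families are known for roles in lymphocyte growth and development. The arrays were hybridised with amplified cDNA of total RNA, so a probe set can report primary transcript, host intron or hairpin, and the level of the mature strand was not measured.

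Mir142 itself lay between 6.77 and 8.25 in the 6 wild type arrays and between 4.05 and 4.70 in the 6 knockout arrays, which fits the genotype labels. The mean signal of 9 NK cell markers was 11.48 to 11.61 in the 6 spleen arrays and 11.18 to 11.43 in the 6 bone marrow arrays. Of these markers Gzma and Prf1 were lower in wild type bone marrow than in wild type spleen, and Gzma was higher in knockout over both tissues. The labels give array numbers but name no run or batch. A wide gap in the numbers was read as 2 runs, and what it marks is not given. The second run held 5 arrays: 3 of wild type (spleen 3, bone marrow 2 and 3) and 2 of knockout (spleen 1 and 2). The first run held every array of knockout bone marrow, so the run was a covariate of the fit. Markers of other cell types differed between groups. The mean signal of 14 granulocyte markers, of which 10 were above the limit of 5.0, was 6.77 to 6.95 in wild type bone marrow and 5.66 to 6.24 in knockout bone marrow. For spleen it was 5.16 to 5.58 (wild type) and 5.52 to 6.02 (knockout). That of 8 T cell markers, of which 6 were above the limit, was 7.05 to 7.24 in wild type bone marrow. In knockout bone marrow it was 6.23 to 6.52. The mean signal of 8 dendritic cell markers, of which 6 were above the limit, was higher in knockout. It was 5.9 to 6.17 in the wild type arrays and 6.4 to 6.61 in the knockout arrays of both tissues. Over both tissues Itgax, H2-Aa and H2-Ab1 passed and the other 3 tested did not. The part of these cells in the results below was not tested, and in bulk arrays fewer cells of a type and less RNA per cell cannot be told apart.

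The mature sequences below are those of the microRNAs whose genes passed a test and of their seed families, with the seed in capitals. They come from RefSeq, build GRCm38.p6, in which 120 of the 136 members had a mature sequence and 109 also a hairpin. The first set belongs to Mir196b, which was higher in knockout cells, and to the Mir17 cluster, in which genes of the cluster on chromosome 14 were lower in knockout bone marrow.
miR-196b-5p: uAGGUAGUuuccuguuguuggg
miR-17-5p: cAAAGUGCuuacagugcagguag
miR-20a-5p: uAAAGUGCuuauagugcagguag
miR-18a-5p: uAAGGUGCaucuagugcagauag
miR-19b-3p: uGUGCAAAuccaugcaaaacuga
miR-106b-5p: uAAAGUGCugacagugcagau
miR-93-5p: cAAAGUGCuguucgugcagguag
The strand of miR-196b-5p lies at chr6:52230129-52230150 on the minus strand, between Hoxa9 and Hoxa10. The strands of miR-17-5p (chr14:115043684-115043706), miR-20a-5p (chr14:115044183-115044205) and miR-19b-3p (chr14:115044358-115044380) lie on the plus strand of chromosome 14. Those of miR-106b-5p and miR-93-5p, which share the seed AAAGUGC with miR-17-5p and miR-20a-5p, lie in an intron cluster of Mcm7 on chromosome 5.

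The second set belongs to genes that differed in bone marrow or between wild type tissues, with members that carry the same seed for miR-103-3p, miR-181d-5p and miR-195a-5p.
miR-103-3p: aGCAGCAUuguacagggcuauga
miR-107-3p: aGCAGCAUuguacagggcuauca
miR-181d-5p: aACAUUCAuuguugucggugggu
miR-181c-5p: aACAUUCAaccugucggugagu
miR-181b-5p: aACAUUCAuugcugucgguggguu
miR-195a-5p: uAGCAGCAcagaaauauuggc
miR-15a-5p: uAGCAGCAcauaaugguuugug
miR-16-5p: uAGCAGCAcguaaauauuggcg
miR-497a-5p: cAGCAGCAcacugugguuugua
miR-194-5p: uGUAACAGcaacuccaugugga
miR-149-5p: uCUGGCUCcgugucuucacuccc
miR-673-5p: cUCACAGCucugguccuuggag
miR-199a-3p: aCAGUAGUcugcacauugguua
miR-326-3p: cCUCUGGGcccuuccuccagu
miR-505-3p: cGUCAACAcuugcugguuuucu
Mir194-1 and Mir194-2 encode the same miR-194-5p from chromosomes 1 and 19, and Mir16-1 and Mir16-2 the same miR-16-5p from chromosomes 14 and 3. Mir330 carries the seed of miR-326-3p and is not printed. Among all members, 21 seeds were carried by 2 or more genes, and 47 members shared a seed with another member.

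The means of the 136 probe sets ran from 5.01 to 9.99 with a median of 6.09, against 6.71 for all tested probe sets, and 63 had means below 6 and 7 above 8. Among the 15727 probe sets tested, which had 1 symbol and a mean above 5.0, 32.4% had means below 6. The highest means belonged to Mir598 (9.99), Mir692-1 (9.38), Mir346 (8.75), Mir6516 (8.71) and Mir667 (8.31), but probes differ in affinity, so this is not an order of abundance. None of these 5 passed a test in any of the 6 comparisons. Just inside the limit were Mir532 (5.01), Mir672 (5.05) and Mir350 (5.05), and just outside it Mir9-3 (4.99), Mir196a-2 (4.94) and the cluster transcript Mir17hg (4.93).

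Knockout was first compared with wild type in each tissue, the comparison that asks what the loss of Mir142 does to other microRNA genes. A gene was called where its adjusted p was under 0.05 (limma, Benjamini-Hochberg over the 15727 probe sets), and each difference is a log2 value with its standard error. In spleen 0 of 136 members passed, while 7.01% of all tested probe sets did (4.2% higher and 2.81% lower). At an unadjusted p under 0.05 the spleen comparison had 6 members, 4.41%, against 19.6% of all tested. In bone marrow 8 members passed, 5.88%, close to the 6.55% of all tested. Of these, 6 were higher in knockout (background 3.17%) and 2 lower (background 3.38%). Over both tissues 5 members passed, or 3.68% against 15.4% of all tested. Of these, Mir196b, Mir673 and Mir149 were higher (background 7.32%) and Mir20a and Mir19b-1 lower (background 8.11%). At an unadjusted p under 0.05 there were 15 members over both tissues, against 27.4% of all tested.

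The 8 members called in bone marrow were Mir196b, Mir103-2, Mir194-1, Mir181d, Mir673 and Mir149, which rose, and Mir20a and Mir19b-1, which fell. Leaving out wild type bone marrow 1 ended all 8 calls and left 1 other, Mir30d, and each of the other 11 arrays left out gave 3 to 8 calls. Without that array the calls over all tested probe sets went from 1030 to 341. Wild type bone marrow 1 is the only array of its group in the first run, and within that run 1 member, Mir196b, passed.

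**Figure D1:**
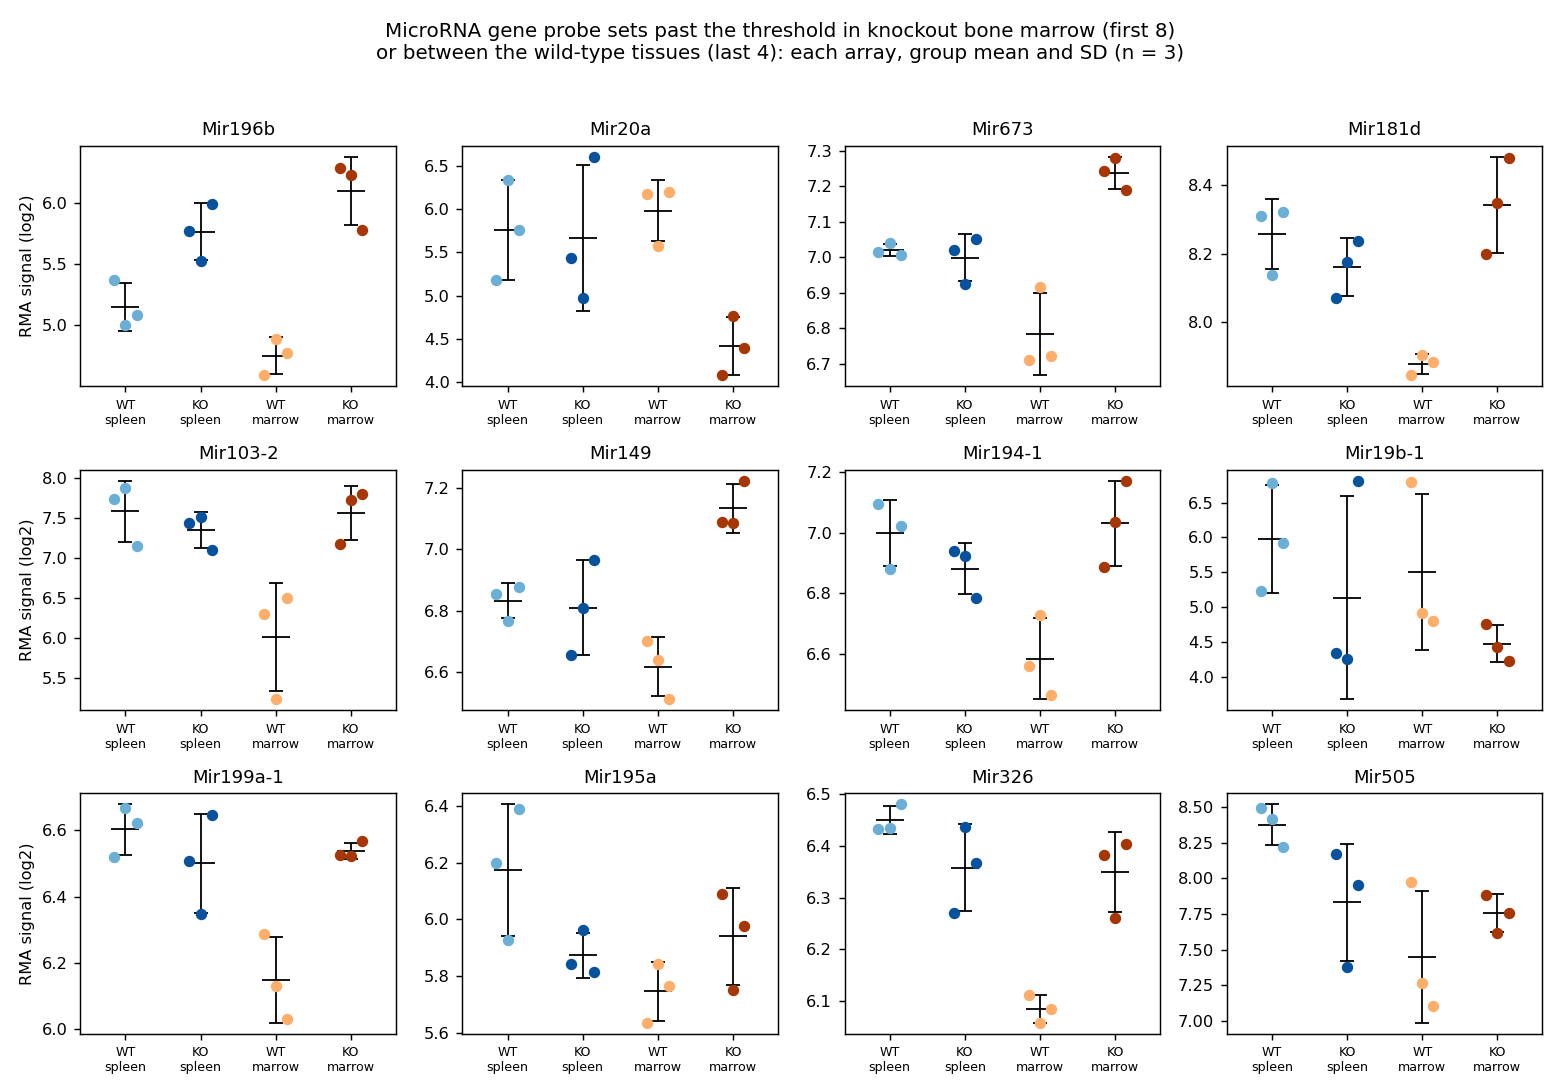
Log2 RMA signal of the 12 called microRNA probe sets in each of the 12 arrays (points), with group mean and SD (bars, n = 3), for wild type (WT) and knockout (KO) cells of spleen and bone marrow; each panel has its own vertical scale. Mir196b is high in both knockout groups, Mir20a is low in knockout bone marrow alone, and in the panels of Mir103-2, Mir181d, Mir194-1 and Mir326 the wild type bone marrow arrays are the lowest.

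Mir196b, which lies inside the Hoxa cluster of developmental transcription factor genes, was the member with the smallest p in both tissues. Its signal was 5.37, 5.0 and 5.08 in wild type spleen and 5.77, 5.53 and 5.99 in knockout spleen. The bone marrow signals were 4.59, 4.89 and 4.78 in wild type and 6.28, 6.23 and 5.78 in knockout. All 6 knockout arrays lay above all 6 wild type arrays. The difference was 0.64 ± 0.17 in spleen, which did not pass (adjusted p = 0.052), 1.30 ± 0.19 in bone marrow (adjusted p = 0.0024) and 0.97 ± 0.12 over both (adjusted p = 0.00026). The difference between the 2 effects was 0.66 ± 0.28 and did not pass (adjusted p = 0.50). Within the first run the difference over both tissues was 1.16 (adjusted p = 0.017). In spleen alone it was 0.81 in the first run and 0.57 in the second, and in bone marrow without wild type bone marrow 1 it was 1.04 (adjusted p = 0.059). The wild type bone marrow signals lay below 5.0, where the lower quartile of all probe sets in those arrays was 4.55 to 4.6. All 6 knockout arrays lay above 5.0, so Mir196b passed the limit on the mean with their help.

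The Hoxa genes next to Mir196b were looked up after its values were seen. Hoxa9, a transcription factor of blood progenitors, was higher in knockout by 1.47 ± 0.14 in spleen (adjusted p = 0.00013) and 1.73 ± 0.16 in bone marrow (adjusted p = 0.00011). Hoxa7 was higher by 0.51 ± 0.10 and 0.85 ± 0.11 (adjusted p = 0.0088 and 0.00093). Hoxa10 rose by 0.82 ± 0.13 in spleen (adjusted p = 0.0034), and in bone marrow its difference was 0.50 ± 0.15 (adjusted p = 0.07). Mir196a-2, whose probe set missed the limit with a mean of 4.94, differed by 0.26 ± 0.14 and 0.11 ± 0.16 in a fit without the limit and did not pass.

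The Mir17 cluster, a set of microRNAs that promote cell division and are carried on 1 transcript, had 4 members on chromosome 14. Mir20a was 6.17, 5.57 and 6.19 in wild type bone marrow and 4.09, 4.76 and 4.40 in knockout bone marrow, with no overlap. The knockout bone marrow signals of Mir20a lay below 5.0. In spleen it was 5.18, 6.33 and 5.75 in wild type and 5.43, 4.97 and 6.60 in knockout, and these groups overlapped. Mir20a fell by 1.93 ± 0.40 in knockout bone marrow (adjusted p = 0.015) and by 0.92 ± 0.25 over both tissues (adjusted p = 0.029), with a spleen difference of 0.10 ± 0.36 (adjusted p = 0.93). Within the first run the bone marrow difference was -1.75 (adjusted p = 0.11). The difference between the tissues was -2.03 ± 0.57 and did not pass (adjusted p = 0.34).

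Mir19b-1 varied widely within groups. It was 6.79, 4.91 and 4.80 in wild type bone marrow and 4.75, 4.43 and 4.23 in knockout bone marrow, and 5.23, 6.77 and 5.92 in wild type spleen and 4.34, 4.25 and 6.81 in knockout spleen. The bone marrow groups were separated by little and wild type bone marrow 1 stood far above the others. Mir19b-1 fell by 2.04 ± 0.54 in bone marrow (adjusted p = 0.047) and 1.19 ± 0.33 over both tissues (adjusted p = 0.034). The knockout bone marrow signals lay below 5.0, as did those of wild type bone marrow 2 and 3. The lower quartile of all probe sets in the knockout bone marrow arrays was 4.63 to 4.65. Mir19b-1 thus passed the limit on the mean with the help of the arrays where it was higher. Without the run covariate the bone marrow difference was -1.03 (adjusted p = 0.35), and the call was lost in 19 of 24 alternatives.

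The other 2 members of the cluster did not pass in the main fit. Mir18 was 6.59, 6.77 and 6.51 in wild type bone marrow and 5.45, 6.27 and 5.15 in knockout bone marrow, a difference of -1.06 ± 0.30 (adjusted p = 0.064). Mir17 differed by -0.41 ± 0.22 in bone marrow (adjusted p = 0.31). With the replicate number added to the fit, Mir17 and Mir18 both passed in bone marrow and over both tissues. Mir18 also passed in bone marrow without the run covariate, with a variance trend, with 1 probe set per symbol and without knockout bone marrow 2. Mir19a, of the same cluster, had a mean of 3.00 and is not a member. The host transcript Mir17hg, also outside the limit, was 5.22, 5.29 and 5.09 in wild type spleen and 4.72, 4.57 and 4.41 in knockout spleen. Its bone marrow signals were 4.86, 4.76 and 4.95 in wild type and 5.16, 5.19 and 4.91 in knockout. In a fit without the limit it fell by 0.64 ± 0.12 in knockout spleen (adjusted p = 0.011) and its bone marrow difference was 0.24 ± 0.14 (adjusted p = 0.37). The probe set called lower in spleen was thus the host transcript's, and those called lower in bone marrow in the main fit were Mir20a and Mir19b-1.

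The related cluster in Mcm7, a gene of the replicative helicase, gave other values. Mir106b, Mir93 and Mir25 differed between knockout and wild type bone marrow by -0.01 ± 0.15, -0.09 ± 0.13 and 0.17 ± 0.23, and by -0.15 ± 0.14, 0.01 ± 0.12 and 0.18 ± 0.21 in spleen. None passed. The strands miR-93-5p and miR-106b-5p carry the same seed as miR-20a-5p, but mature strands were not measured. Mcm7 fell by 0.70 ± 0.16 in knockout bone marrow (adjusted p = 0.024) and was higher by 1.22 ± 0.14 in wild type bone marrow than in wild type spleen (adjusted p = 0.0018). Of the 19 listed genes of these clusters and their paralogs, 7 were tested, 2 fell in bone marrow and over both tissues, and 0 passed in spleen. Of all tested probe sets 3.38% fell in bone marrow and 8.11% over both tissues, and 7.01% passed in spleen. The median difference of the 7 in bone marrow was -0.41, against 0.01 for all tested probe sets.

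**Figure D2:**
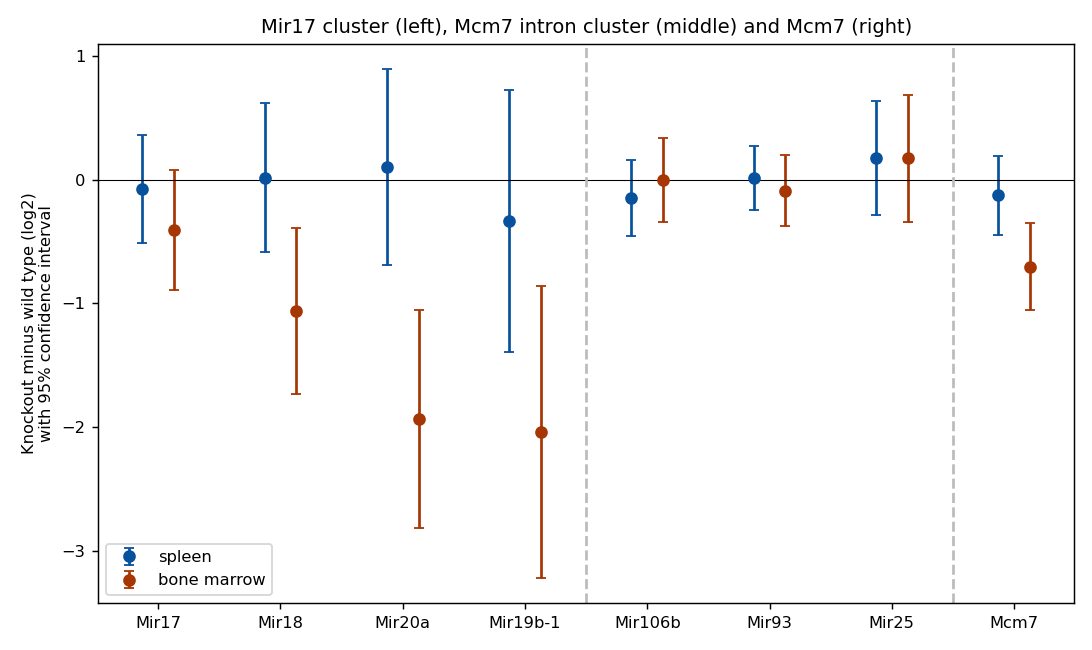
Difference between knockout and wild type (log2) with its 95% confidence interval in spleen and bone marrow for 4 genes of the Mir17 cluster, 3 of the cluster in Mcm7, and Mcm7. The bone marrow values of Mir18, Mir20a and Mir19b-1 lie below -1 with wide intervals, while those of Mir106b, Mir93 and Mir25 lie within 0.20 of 0.

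Mir103-2, in an intron of the pantothenate kinase gene Pank2, had its lowest signals in wild type bone marrow. These were 6.29, 5.23 and 6.5, against 7.17, 7.72 and 7.80 in knockout bone marrow. The spleen arrays had 7.73, 7.87 and 7.15 in wild type and 7.43, 7.51 and 7.09 in knockout. All 9 arrays of the other groups lay above the 3 of wild type bone marrow. Mir103-2 rose by 1.40 ± 0.35 in knockout bone marrow (adjusted p = 0.037) and fell by 1.5 ± 0.31 from wild type spleen to wild type bone marrow (adjusted p = 0.026). Both comparisons use the wild type bone marrow arrays. Pank2 differed by 0.06 ± 0.22 and -0.07 ± 0.19 in the same comparisons and did not pass. Mir107, whose hairpin matches that of Mir103-2 at 73 of its 87 bases and whose mature strand has the same seed, differed by 0.30 ± 0.15 (adjusted p = 0.27) and -0.22 ± 0.14 (adjusted p = 0.37).

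Mir181d belongs to a family known for its part in T cell and NK cell development. Its signal was 7.84, 7.90 and 7.88 in wild type bone marrow and 8.20, 8.35 and 8.48 in knockout bone marrow, with no overlap. In spleen, where the groups overlapped, wild type had 8.31, 8.14 and 8.32 and knockout 8.07, 8.18 and 8.24. It rose by 0.47 ± 0.12 in knockout bone marrow (adjusted p = 0.036), and its spleen difference was -0.10 ± 0.10 (adjusted p = 0.70). Mir181c, which lies in 1 cluster with it on chromosome 8, differed by 0.26 ± 0.16 in bone marrow, and Mir181b-2 by 0.58 ± 0.35; neither passed (adjusted p = 0.37 and 0.36).

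Mir673 lies on chromosome 12 between Dlk1 and Dio3, an imprinted region that carries many microRNAs on transcripts of the maternal chromosome. It was 6.71, 6.92 and 6.72 in wild type bone marrow and 7.24, 7.28 and 7.19 in knockout bone marrow, while the 6 spleen arrays lay between 6.92 and 7.05. Mir673 rose by 0.46 ± 0.10 in knockout bone marrow (adjusted p = 0.024) and by 0.22 ± 0.06 over both tissues (adjusted p = 0.042). In all, 14 members lie in this region, and Mir673 was the 1 that passed. Their differences in bone marrow ran from -0.02 to 0.46 with a median of 0.16, and 13 of 14 were above 0. Over all 136 members the bone marrow median was 0.15, and 73.5% were above 0. In spleen 3 of 14 were above 0 (all members 30.1%), with a median of -0.05 (all members -0.07). From wild type spleen to wild type bone marrow 1 of 14 was above 0 (all members 16.2%), with a median of -0.21 (all members -0.17).

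Mir149 and Mir194-1 made up the rest. Mir149, within the bounds of the glypican gene Gpc1, was 6.70, 6.64 and 6.51 in wild type bone marrow and 7.09, 7.09 and 7.22 in knockout bone marrow, and rose by 0.45 ± 0.11 (adjusted p = 0.038). Over both tissues it rose by 0.23 ± 0.07 (adjusted p = 0.049), with a spleen difference of 0.01 ± 0.10. Gpc1 rose by 1.09 ± 0.14 in knockout spleen (adjusted p = 0.00061), and its bone marrow difference was 0.38 ± 0.15 (adjusted p = 0.17). Mir194-1 was 6.56, 6.73 and 6.47 in wild type bone marrow and 6.89, 7.03 and 7.17 in knockout bone marrow. It rose by 0.50 ± 0.12 (adjusted p = 0.039), and Mir194-2, which encodes the same mature strand, differed by 0.19 ± 0.17 (adjusted p = 0.54). The calls of Mir149, Mir194-1, Mir181d and Mir103-2 in bone marrow were lost in 19, 18, 14 and 12 of 26 alternatives, that of Mir673 in 8 of 26, that of Mir20a in 4 of 24 and that of Mir196b in 3 of 24. Over both tissues the call of Mir196b was lost in 0 of 23, those of Mir20a and Mir19b-1 in 13 of 23 each, that of Mir673 in 18 of 25 and that of Mir149 in 19 of 25.

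**Figure D3:**
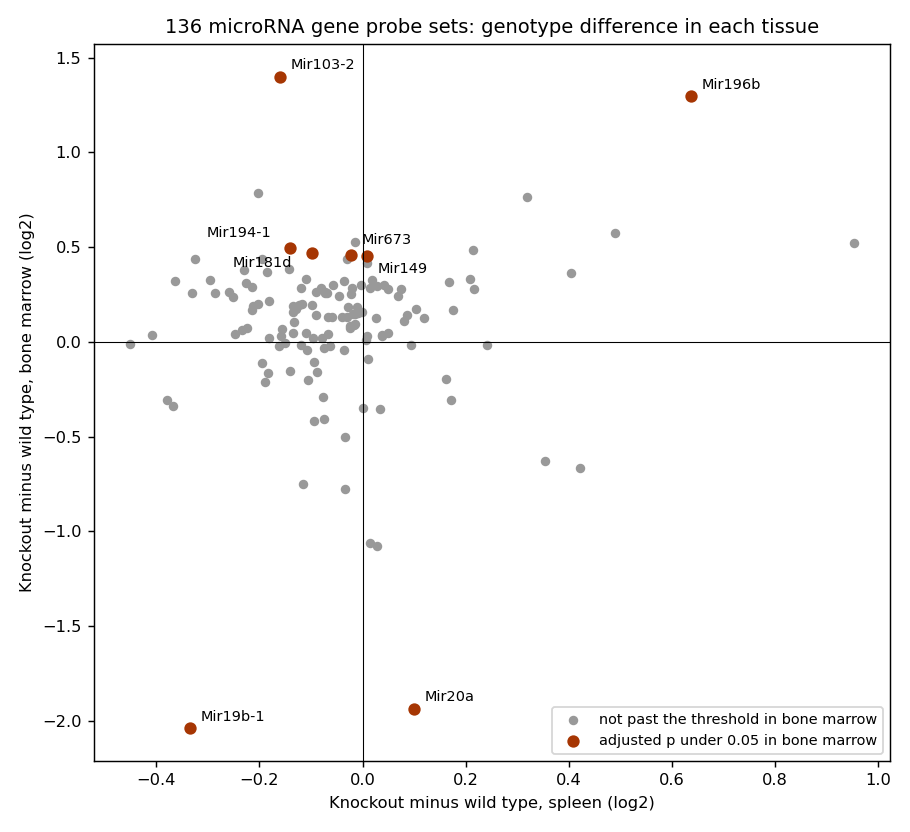
Difference between knockout and wild type (log2) in spleen (horizontal axis) and in bone marrow (vertical axis) for each of the 136 microRNA probe sets, with those called in bone marrow named. Mir196b is the named gene well above 0 on both axes, while Mir103-2, Mir20a and Mir19b-1 lie far from 0 in bone marrow and within 0.40 of 0 in spleen.

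In spleen the members with the smallest p after Mir196b were Mir195a (-0.36 ± 0.12, adjusted p = 0.10), Mir504 (-0.23 ± 0.10, adjusted p = 0.21), Mir200c (-0.33 ± 0.14, adjusted p = 0.23) and Mir335 (-0.45 ± 0.20, adjusted p = 0.24). Mir504 was 6.38, 6.45 and 6.27 in wild type spleen and 6.0, 6.08 and 6.20 in knockout spleen, and the groups did not overlap. Of the 136 members, 13 had spleen groups that did not overlap, or 9.56% against 25.3% of all tested probe sets. In bone marrow 51 did not overlap, or 37.5% against 32.3%.

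The genotype effects in the 2 tissues were compared directly, taking the effect in spleen from that in bone marrow. No member passed, and 1 of 15727 probe sets did, or 0.00636%. At an unadjusted p under 0.05 there were 28 members, 20.6%, against 9.29% of all tested, and 106 estimates were above 0, 77.9% against 51.7%. The smallest p belonged to Mir195a (0.69 ± 0.19, adjusted p = 0.33), Mir194-1 (0.64 ± 0.18), Mir20a (-2.03 ± 0.57), Mir181d (0.57 ± 0.17) and Mir688 (0.61 ± 0.18).

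Bone marrow was then compared with spleen within each genotype. In wild type cells 5 members passed and all were lower in bone marrow, or 3.68% against 0.846% of all tested probe sets that were lower. No member was higher, against 3.4% of all tested, and 4.25% passed in either direction. In knockout cells 0 members passed, against 0.216% of all tested (0.0509% higher and 0.165% lower), and 8 had an unadjusted p under 0.05, or 5.88% against 8.7%. The members with the smallest p there were Mir20a (-1.62 ± 0.40, adjusted p = 0.21), Mir19b-1 (-1.67 ± 0.54), Mir694, Mir200a and Mir673.

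Beside Mir103-2, the 5 wild type calls were Mir199a-1, Mir195a, Mir326 and Mir505. Mir199a-1, whose family is known from connective tissue and muscle, was 6.52, 6.67 and 6.62 in wild type spleen and 6.29, 6.13 and 6.03 in wild type bone marrow, and fell by 0.41 ± 0.10 (adjusted p = 0.043). Mir195a was 6.20, 5.93 and 6.39 in wild type spleen and 5.63, 5.84 and 5.76 in wild type bone marrow, and fell by 0.49 ± 0.12 (adjusted p = 0.044). Mir326 was 6.43, 6.43 and 6.48 against 6.11, 6.06 and 6.08 and fell by 0.36 ± 0.09 (adjusted p = 0.045). Mir505 was 8.50, 8.41 and 8.22 against 7.97, 7.27 and 7.11 and fell by 0.79 ± 0.20 (adjusted p = 0.048). For each of these the wild type groups did not overlap. Beside 9 of 27 alternatives for Mir103-2, the calls were lost in 18 of 27 for Mir505, 19 of 26 for Mir195a, 20 of 27 for Mir199a-1 and 21 of 27 for Mir326. No member passed within either run, and none passed with the granulocyte marker level as a covariate. In each of these fits 0 of all 15727 probe sets passed as well. Leaving out wild type spleen 3 or wild type bone marrow 1 left 0 members called (without the latter, 81 of all tested probe sets passed, against 668 before), wild type spleen 1 or 2 left 1, and wild type bone marrow 2 or 3 left 2.

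Most of the 136 differences leaned 1 way within a comparison, by small amounts, where wild type bone marrow was used and also between the spleen groups. Between wild type tissues 22 of 136 differences were above 0, or 16.2% against 43.9% of all tested probe sets, and the median was -0.17 against -0.04. Between knockout and wild type bone marrow 100 were above 0, or 73.5% against 51.6%, with a median of 0.15 against 0.01. In spleen 41 were above 0, or 30.1% against 45.9%, with a median of -0.07 against -0.02. Over both tissues 82 were above 0, or 60.3% against 50.3%. In knockout cells 68 were above 0 between tissues, or 50% against 50.5%, with a median of 0.00 for both. These comparisons share arrays and are not independent of each other.

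The count per array of members above their own 12-array mean was 96, 92 and 98 of 136 for wild type spleen. For wild type bone marrow it was 41, 32 and 28. The knockout arrays had 48, 69 and 90 (spleen) and 67, 78 and 90 (bone marrow). By this count the wild type bone marrow arrays were the lowest 3 and the wild type spleen arrays the highest 3. The median signal of the members gave another order. It was lowest in knockout spleen 1 (5.98), and knockout bone marrow 3 (6.20) lay above wild type spleen 1 (6.15) and 3 (6.11). The lower quartile of all probe sets was also lowest in wild type bone marrow, 4.55 to 4.6, against 4.63 to 4.65 in knockout bone marrow, 4.67 to 4.72 in wild type spleen and 4.61 to 4.65 in knockout spleen. With each array centred on its median, 34 of 136 members were above 0 between wild type tissues, with a median of -0.10 against 0.04 for all tested, and 1 member, Mir103-2, passed. Granulocyte markers were highest in the same arrays: 7 of 10 tested were higher in wild type bone marrow than in wild type spleen and 3 of 10, S100a8, Lcn2 and Retnlg, were lower in knockout than in wild type bone marrow. With their level as a covariate the member medians were -0.28 between wild type tissues and 0.18 between the bone marrow groups, and of the 8 bone marrow calls 0 remained, while 57 of all tested probe sets passed, against 1030 before. Under that covariate the directions stayed the same, with 1.01 for Mir196b, -3.07 for Mir20a, 1.36 for Mir103-2, 0.52 for Mir181d and 0.57 for Mir149. The marker level was 6.77 to 6.95 in wild type and 5.66 to 6.24 in knockout bone marrow. In wild type spleen it was 5.16 to 5.58. It thus cannot be told apart from genotype in bone marrow, or from tissue in wild type cells. The part of granulocytes in these changes was not tested.

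**Figure D4:**
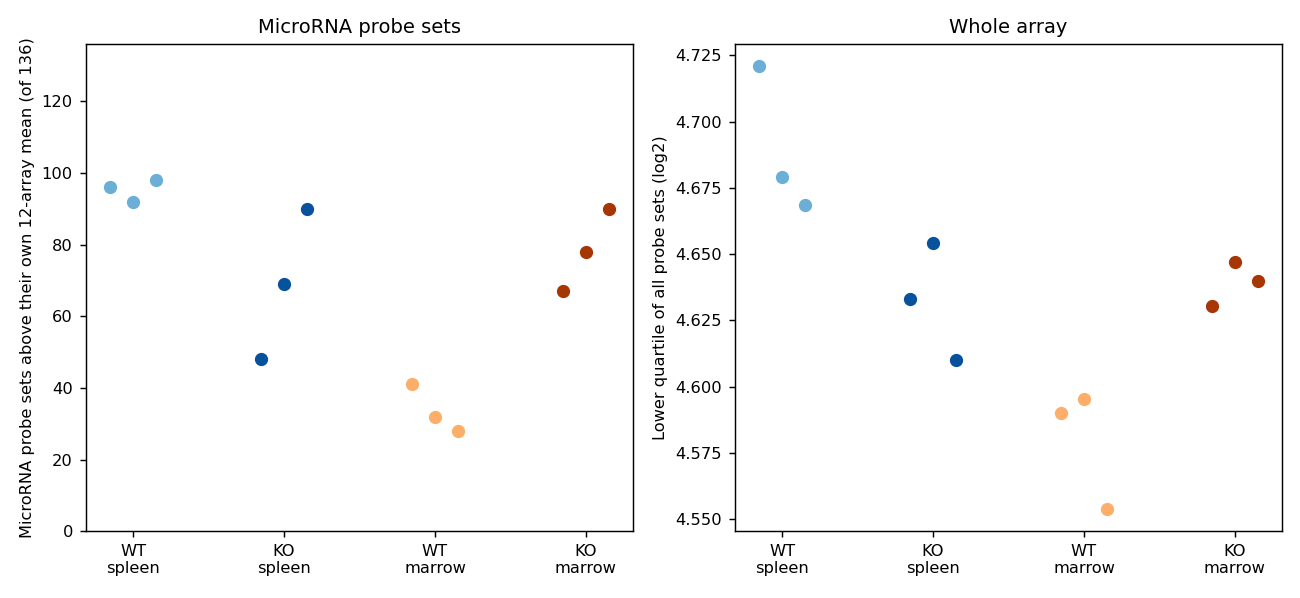
Left, number of the 136 microRNA probe sets whose signal in an array is above their own mean over the 12 arrays; right, lower quartile of the log2 signal of all 35556 probe sets. Each point is 1 array; the wild type bone marrow arrays are the lowest in both plots, with 28 to 41 probe sets and lower quartiles of 4.55 to 4.6.

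Families that share a seed were read next. The let-7 genes and Mir98, with the seed GAGGUAG, had 5 members, and none passed in any comparison of the main fit. In bone marrow Mirlet7g was 6.03, 6.48 and 5.91 in wild type and 5.01, 5.69 and 4.81 in knockout, a difference of -0.77 ± 0.28 (adjusted p = 0.13). It passed in bone marrow without the run covariate, without knockout bone marrow 2, and with the granulocyte covariate, where it was the 1 member called. Over both tissues Mirlet7g passed in the last 2 of these fits. Mirlet7a-1, Mirlet7e, Mirlet7i and Mir98 differed by -0.29 ± 0.26, 0.11 ± 0.13, 0.28 ± 0.26 and 0.17 ± 0.14. The miR-15/16 family, which restrains the cell cycle, also had 5 members. Mir15a, Mir16-1, Mir16-2, Mir195a and Mir497 differed in bone marrow by 0.32 ± 0.20, -0.31 ± 0.27, -0.02 ± 0.20, 0.32 ± 0.13 and 0.13 ± 0.13, and none passed. Mir128-1 and Mir128-2 encode the same mature strand, and differed by -1.08 ± 0.33 (adjusted p = 0.076) and -0.02 ± 0.17.

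Of 48 listed microRNA genes that are studied in lymphocytes, 21 were members, and Mir181d in bone marrow was the 1 that passed in any comparison. Of all tested probe sets 6.55% passed in bone marrow. Mir155, which is induced on lymphocyte activation, differed by 0.42 in spleen and -0.66 in bone marrow (adjusted p = 0.42 and 0.20). Mir150, a microRNA of mature lymphocytes, differed by 0.01 and 0.42 (adjusted p = 0.99 and 0.17). Mir23a, Mir27a and Mir24-2, which share a transcript on chromosome 8, differed by 0.04, -0.31 and 0.33 in bone marrow, and Mir221 and Mir222 by 0.26 and -0.16. Of 30 listed microRNA genes of other lineages 6 were members, and Mir199a-1 between wild type tissues was the 1 that passed, where 4.25% of all tested did.

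Members were then set beside the genes that hold them. RefSeq placed 58 members inside a gene on the same strand, and 41 of these, in 31 genes, had a host with a tested probe set. Hosts whose symbol starts with Mir, such as Mir670hg for Mir670, were left out of the 41. The members that passed and had a tested host were few: Mir103-2 in bone marrow and between wild type tissues, and none in the other 4 comparisons. Pank2, its host, did not pass, so no pair passed together. Pde2a, a phosphodiesterase, fell by 1.75 ± 0.12 in knockout bone marrow (adjusted p = 1.6e-05), while Mir139 within it was 7.51, 7.41 and 7.58 in wild type and 7.57, 7.75 and 7.81 in knockout, a difference of 0.17 ± 0.11. Lpp, an adhesion protein gene, rose by 1.02 ± 0.16 (adjusted p = 0.0029), and Mir28a within it differed by -0.63 ± 0.30 (adjusted p = 0.26). Fgf13 fell by 0.74 ± 0.17 in knockout spleen (adjusted p = 0.023) and 0.70 ± 0.19 in knockout bone marrow (adjusted p = 0.049), and Mir504 within it differed by -0.23 ± 0.10 and 0.07 ± 0.11. Across the 41 pairs, Pearson's r between the member's and the host's difference was 0.38 in spleen and -0.04 in bone marrow. This is a description across genes on shared arrays, and some pairs share a host.

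**Figure D5:**
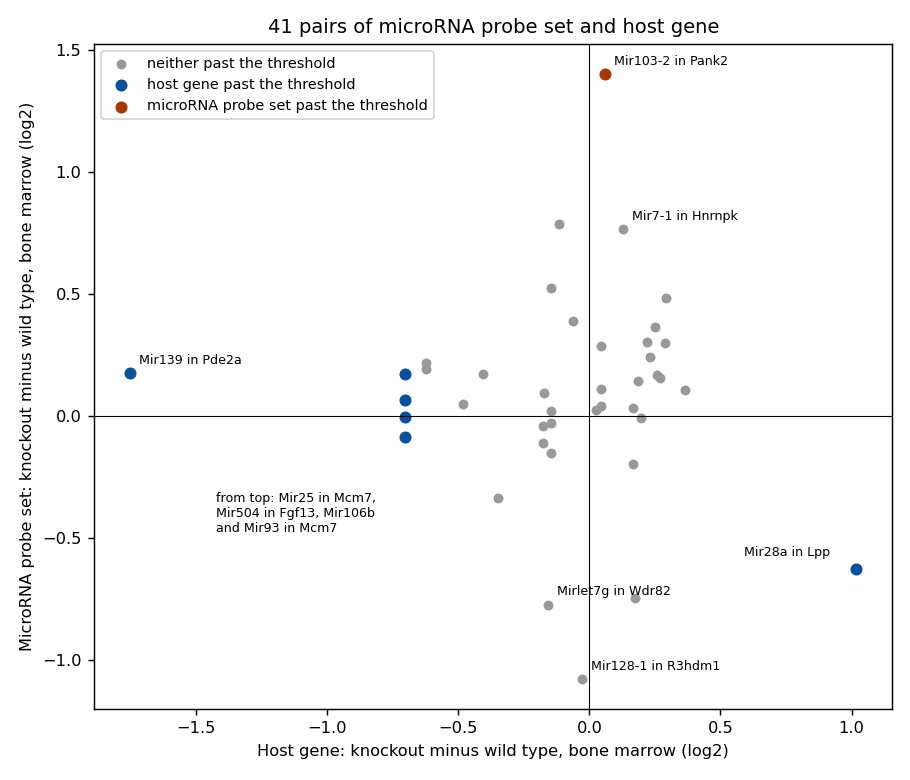
Difference between knockout and wild type bone marrow (log2) of the host gene (horizontal axis) and of the microRNA probe set within it (vertical axis), for 41 pairs. Pairs in which the host passed lie along 0 on the vertical axis or, for Mir28a in Lpp, on the opposite side, and Mir103-2, the member that passed, lies near 0 for its host.

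The genes that make and use microRNAs were read from a list. Of 29 listed processing and effector genes 25 were tested. Xrn2, an exonuclease that degrades RNA, lay between 10.24 and 10.43 in the 6 wild type arrays and between 9.56 and 9.81 in the 6 knockout arrays. It fell by 0.68 ± 0.10 and 0.64 ± 0.11 in knockout spleen and bone marrow (adjusted p = 0.002 and 0.0063). Drosha and Tut4, which adds uridines to RNA ends, fell over both tissues by 0.42 ± 0.10 and 0.29 ± 0.08 (adjusted p = 0.015 and 0.025). Dicer1, Dgcr8, Xpo5 and Ago2 did not pass in any comparison, and Ran was higher by 0.63 ± 0.09 in wild type bone marrow than in wild type spleen (adjusted p = 0.0061).

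The base composition of the hairpins was compared with the differences. Over the 109 members with a hairpin, the share of G and C ran from 36.8% to 69.2% with a median of 54.1%. Pearson's r between this share and the difference was -0.10 in spleen, 0.12 in bone marrow, 0.07 over both tissues, -0.03 between wild type tissues, 0.23 between knockout tissues and 0.16 for the difference of the 2 genotype effects. The value of r between this share and the mean signal was 0.41. All points share the same arrays.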

How the data were processed

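Per the labels' protocols, total RNA of sorted NK cells was extracted with Trizol, amplified with the NuGEN Ovation PicoSL system and put as biotin-labelled cDNA on Affymetrix arrays. The deposited table holds log2 signals per probe set, made by the authors with Affymetrix Expression Console and RMA, per the submitters' processing notes. The versions of these programs are not given in the sources used, nor is a build. A signal is relative to its array, and the deposited arrays kept small differences in distribution, with medians of 5.75 to 5.87 over all probe sets. Arrays carry no read depth, so their number limits the precision.

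From these values, probe sets with 1 symbol and a mean above 5.0 (15727 of 35556) were fitted in limma 3.58.1 (R 4.3.3) with 4 group means and the run as covariate, with 7 residual and 4.18 prior degrees of freedom. The steps were tested on simulated data. Tests are two-sided, with Benjamini-Hochberg adjustment over all 15727, in 6 comparisons. Members and lists were chosen with earlier results of these data known. The text names members called in any comparison, the 5 with the smallest p where fewer passed, the highest means, the listed families with their cluster and seed partners, and hosts. Sequences, positions and neighbours come from RefSeq GRCm38.p6; a member within a gene whose strand the tables do not give was not counted as hosted. Alternatives changed the run covariate, filter, scaling, variance model, replicate block and arrays used. The p-values measure the spread between arrays that the labels call biological replicates.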

Additional observations from a re-analysis of the deposited data

How the results depend on the processing

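Of 828 values of named members under the alternatives, 572 kept their direction and side of the threshold, 247 kept the direction and lost the call, 9 gained it and 0 reversed. The 572 include results that had not passed to begin with and stayed so, while all 247 losses come from calls. The total is thus no measure of how stable the calls were, and the losses of each call are given above. Mir196b over both tissues passed in all 23 of its alternatives, with values of 0.86 to 1.16. With means above 6.0 only 73 members were tested, and with 1 probe set per symbol 107. Neither of these fits held Mir196b, Mir20a or Mir19b-1. The 5 bone marrow calls and the 2 calls over both tissues that were tested with means above 6.0 all stayed. In spleen the count of members called went from 0 to 1 (Mir196b) without the run covariate, with renewed quantile normalization, with arrays centred on their medians, with a variance trend, with a robust trend, or with only the compared groups, and to 1 (Mir19b-1) within the second run. In bone marrow it went from 8 to 12 (7 of them shared) without the run covariate, 5 without a filter on the mean, 5 with means above 6.0, 3 with all probe sets, 4 with a robust trend, 1 within the first run, 1 with the granulocyte covariate and 0 without wild type bone marrow 1 and 2. Over both tissues it went from 5 to 3 without the run covariate, 2 with 1 probe set per symbol, 3 without the filter, 2 with means above 6.0, 1 with all probe sets, 3 with the trend, 1 with the robust trend and 2 without wild type bone marrow 1 and 2. Between wild type tissues it went from 5 to 9 without the run covariate, 7 with 1 probe set per symbol, 7 with means above 6.0, 7 with only the compared groups, 1 without the filter, 0 with all probe sets, 2 with quantile normalization, 1 with median centring, 3 with either trend, and 0 within either run, without wild type bone marrow 1 and 2, or with the granulocyte covariate. Leaving out 1 array at a time gave 0 to 1 members in spleen, 1 to 8 in bone marrow, 2 to 5 over both, 0 to 5 between wild type tissues, and 0 for the interaction and between knockout tissues. Same-numbered arrays of different groups deviated together with r of -0.02 to 0.22, above 0.1 in 6 of 18 pairs. Between spleen and bone marrow of the same genotype r was 0.04 to 0.20. Arrays with different numbers were not compared, so these values cannot settle whether the numbers pair the samples. The replicate block gave 6 members in bone marrow (4 shared with the fit without it), 6 over both tissues (3 shared) and 4 between wild type tissues (3 shared). Counts over all tested probe sets moved too: in bone marrow from 1030 to 1675 without the run covariate, 283 within the first run, 57 with the granulocyte covariate and 176 without wild type bone marrow 1 and 2, and between wild type tissues from 668 to 1005 with median centring and 0 within each run and with the granulocyte covariate. Without wild type bone marrow 1 these counts were 341 and 81. In spleen they went from 1102 to 195 and 142 within the runs and 357 with the granulocyte covariate, and over both tissues from 2428 to 811 within the first run and 1348 without wild type bone marrow 1 and 2. Within the second run no comparison that needs knockout bone marrow could be fitted, since it held none of those arrays. The cause of these changes was not tested.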
